A study of Mus musculus with 6 samples.

Results

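Heavy chain clonotypes without inserted nucleotides were analysed in naïve follicular (FO) B cells of 1 iB-μMT mouse and 1 C57BL/6 (B6) mouse. Each clonotype stands for a CDR3 of its own nucleotide sequence, the antigen-binding loop that spans the junctions of V, D and J. Members were chosen by the segment ends of the deposited alignment: they were the clonotypes with a D hit in which the V end met the D end, and the D end met the J end, with 0 nucleotides left between them. This rule selected 595 of 6787 clonotypes with a D hit in the library of the iB-μMT mouse (iB library; of 7794 in its table) and 166 of 5948 in that of the B6 mouse (B6 library; of 6781). They were 761 of 14575 heavy chain clonotypes in all. The share of members, the inserted nucleotides, the trimming and the CDR3 length follow from the rule and are given as descriptions.

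The iB-μMT mouse was a sublethally irradiated μMT recipient, a strain that lacks mature B cells, transplanted with hematopoietic progenitors from an embryonic stem cell line of C57BL/6 background with a GFP transgene. That line carried a doxycycline-inducible cassette of Runx1, Hoxa9 and Lhx2 in the Rosa26 locus, and doxycycline was given in the drinking water. Splenic naïve FO B cells were sorted by surface markers, among them IgM and high IgD, 4 weeks after transplantation, and the same gate was used for the B6 control mouse. There was 1 heavy chain library per mouse, so each test below compares clonotypes of these libraries, not conditions, and the effect of the transplantation cannot be told apart from that of the mouse or library. All members with a C gene hit had IGHM, the gene of the μ constant region, in 581 clonotypes of the iB library and 163 of the B6 library. So did 6078 of 6084 and 5699 of 5702 clonotypes with insertions, respectively.

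During V(D)J recombination the RAG enzymes cut beside the segments, the hairpin ends are opened, trimmed and ligated, and opening a hairpin off its tip can leave short palindromic (P) nucleotides. Terminal deoxynucleotidyl transferase (TdT) adds N nucleotides that no germline segment encodes, and it is known to be scarce in the fetal liver, so that fetal and neonatal receptors often lack them. Joints without N nucleotides can be made at short stretches of sequence that both segment ends hold, and then it cannot be said which segment gave those bases.

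The segments that the joints below are built from are shown, to make the matching ends visible. Their bases, 5′ to 3′, were rebuilt from the aligned bases of all clonotypes, and the J segments are shown up to the end of CDR3.
IGHD1-1: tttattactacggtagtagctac
IGHD2-3: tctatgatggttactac
IGHD2-4: tctactatgattacgac
IGHD4-1: ctaactgggac
IGHJ1: ctactggtacttcgatgtctgg
IGHJ2: actactttgactactgg
IGHJ3: cctggtttgcttactgg
IGHJ4: attactatgctatggactactgg
In the RefSeq annotation of GRCm38.p6 the D segments lie at chr12:113482170-113482192 (IGHD1-1), chr12:113475400-113475416 (IGHD2-3), chr12:113470694-113470710 (IGHD2-4) and chr12:113430528-113430538 (IGHD4-1). The J segments lie at chr12:113429781-113429833 (IGHJ1), chr12:113429468-113429515 (IGHJ2), chr12:113429085-113429132 (IGHJ3) and chr12:113428514-113428567 (IGHJ4). IGHD1-1 and IGHD2-3 both end in ctac, the letters with which IGHJ1 begins.

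The 5 most frequent D-J joints of the members are shown by their most read clonotype, since that clonotype has the homology described below. Joints were grouped by the ends the aligner gave, so not every member of a joint has it. Capitals mark the bases at the D-J joint that both germline ends could have given.
IGHD1-1 to IGHJ1 (IGHV2-2, iB library, 571 reads): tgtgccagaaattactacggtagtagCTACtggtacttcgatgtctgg
IGHD2-3 to IGHJ2 (IGHV3-6, iB library, 5930 reads): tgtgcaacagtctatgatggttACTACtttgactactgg
IGHD2-3 to IGHJ4 (IGHV1-64, B6 library, 562 reads): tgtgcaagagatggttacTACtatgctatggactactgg
IGHD2-4 to IGHJ4 (IGHV3-6, iB library, 456 reads): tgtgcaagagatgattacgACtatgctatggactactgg
IGHD1-1 to IGHJ4 (IGHV2-9-1, iB library, 345 reads): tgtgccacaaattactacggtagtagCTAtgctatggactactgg
The IGHD1-1 to IGHJ1 joint was found in 29 members with 23 V genes, 16 in the iB library and 13 in the B6 library. At least 2 nucleotides of homology were found at it in 14 of those 16 and 2 of those 13, and 14 of the 29 were exact germline runs. The IGHD2-3 to IGHJ2 joint was found in 11 and 2, the IGHD2-3 to IGHJ4 joint in 12 and 1, the IGHD2-4 to IGHJ4 joint in 13 and 0, and the IGHD1-1 to IGHJ4 joint in 11 and 1 members, respectively. The last of these was level with a joint of IGHD2-3 to IGHJ1 that is not shown and was found in 8 and 4 members. By the ends the aligner gave, the members of the iB library held 317 distinct D-J joints and those of the B6 library 119, so many members shared a joint and were not independent of each other at it.

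The most read members of each library were also examined, because their reads weigh most. Capitals now mark bases outside the exact germline runs that reached the joint from its segments.
IGHV3-6, IGHD2-3, IGHJ2 (iB library, 5930 reads): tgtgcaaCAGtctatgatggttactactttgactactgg
IGHV1-62-3, IGHD2-3, IGHJ2 (iB library, 924 reads): tgtgcaagatggttactagactactgg
IGHV1-52, IGHD2-3, IGHJ2 (iB library, 755 reads): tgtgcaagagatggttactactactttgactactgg
IGHV1-69, IGHD4-1, IGHJ4 (B6 library, 915 reads): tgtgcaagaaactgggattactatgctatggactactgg
IGHV1-59, IGHD2-5, IGHJ1 (B6 library, 727 reads): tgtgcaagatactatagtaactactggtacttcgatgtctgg
IGHV1-39, IGHD4-1, IGHJ1 (B6 library, 633 reads): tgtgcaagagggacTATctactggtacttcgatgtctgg
In 4 of these 6 clonotypes no base was left outside these runs, and the CDR3 could be read as a V end, a D stretch and a J end in direct contact. In the other 2 the aligner had carried a segment over a mismatch, and 3 bases at the joint lay outside the exact runs. Some of them can match a germline base beyond the mismatch, as the last 2 capitals of the IGHV3-6 clonotype do for its V end.

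The members made up 8.77% of the clonotypes with a D hit in the iB library (95% Wilson interval, 8.12–9.46%) and 2.79% in the B6 library (2.40–3.24%). They held 90187 reads (11.5% of the reads of clonotypes with a D hit) and 36701 reads (3.05%), respectively. The D-J joint lacked insertions more often than the V-D joint in both mice, in 54.1% against 16.5% of the clonotypes of the iB library and in 28.8% against 11.3% of those of the B6 library. Multiplying the shares of the single joints gives 8.91% (605 clonotypes) in the iB library and 3.26% (194 clonotypes) in the B6 library, beside the 595 and 166 found. Just outside the rule, 716 clonotypes of the iB library (10.5%) and 298 of the B6 library (5.01%) had 1 inserted nucleotide. IGHV5 genes made up 32.7% of those 716 and 21.8% of the 595, and the median reads were 104.5 and 118. The IGHV5 share was 26.7% at 2 and 24.8% at 3 inserted nucleotides, closer to that of the members. Among the B6 clonotypes IGHV5 made up 11.1% of the 298 and 6.02% of the 166, and the median reads were 202 and 191.5.

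**Figure D1:**
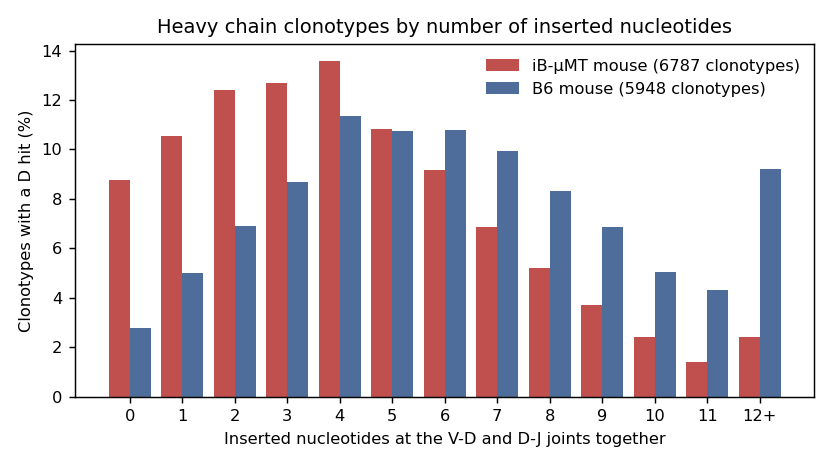
Share of heavy chain clonotypes with a D hit (percent, y axis) by the number of nucleotides inserted at the V-D and D-J joints together (x axis, 12 or more pooled), in the iB library (the iB-μMT mouse, red) and the B6 library (the B6 mouse, blue). At 0 inserted nucleotides the bars stand at 8.77% and 2.79%.

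Each member was then read base by base against the rebuilt germline segments, since the aligner also counts a segment as continuing over a mismatch or into the palindromic extension of its reference. In the iB library 316 of 595 members (53.1%; 95% Wilson interval, 49.1–57.1%) were an exact run of germline bases of V, a D gene and J, and in the B6 library 64 of 166 (38.6%; 31.5–46.1%). Exact runs therefore made up 4.66% of the clonotypes with a D hit in the iB library (4.18–5.18%) and 1.08% in the B6 library (0.844–1.37%). The other members were put in 1 class each by what their alignments held, in a fixed order. An insertion or deletion was held by 79 and 31 members, a D hit mostly in the palindromic extension by 19 and 10, and a substitution by 92 and 47. The 89 and 14 members left over held none of these. Bases read as palindromic and germline bases that could not be rebuilt were not told apart in them. The joints could be read in this way in 543 members of the iB library and 143 of the B6 library. At least 1 base was left uncovered by exact V, J and called D sequence in 239 and 88 of these. The median was 3 bases in each library. Outside the members, 0 of 6192 and 0 of 5782 clonotypes were exact runs. The rule all but fixed this, since those clonotypes hold bases outside the aligned segments at a joint.

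**Figure D2:**
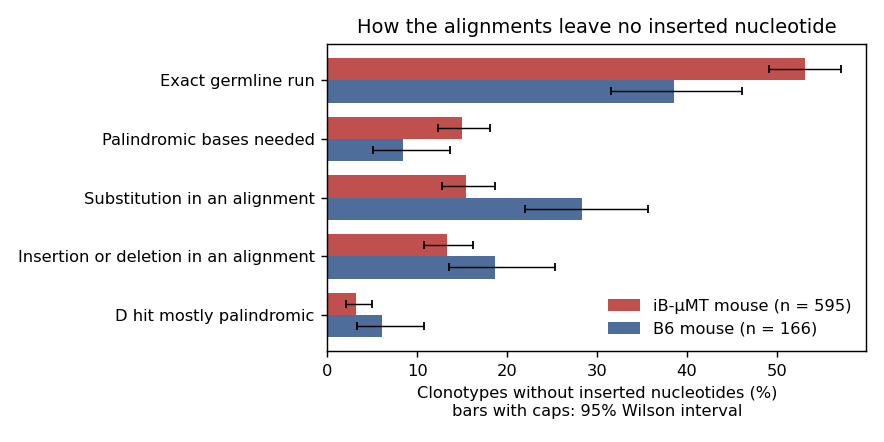
Members (percent of the clonotypes without inserted nucleotides, x axis) by how the deposited alignment came to 0 inserted nucleotides, in the iB library (red, n = 595) and the B6 library (blue, n = 166), with 95% Wilson intervals. Exact germline runs are the longest bars, at 53.1% and 38.6%. The bars named palindromic bases needed hold the members left over by the other classes.

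Mismatches were more frequent in the alignments of members than in those of other clonotypes, which the rule itself favours. Any alignment held a mismatch in 40.5% of the members and 25% of the other clonotypes of the iB library, and in 59.6% and 29.7% in the B6 library. The J alignment held most of them, with mismatches in 28.9% of the members of the iB library and 50.0% of those of the B6 library.

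The CDR3 of members was shorter, with a mean of 12.7 amino acids (SD, 2.01; n = 595) against 14.1 (SD, 2.21; n = 6192) in the iB library and 12.4 (SD, 2.08; n = 166) against 14.5 (SD, 2.47; n = 5782) in the B6 library. The V end had lost a mean of 0.958 nucleotides in members of the iB library and 0.563 in its other clonotypes, and 1.25 against 0.689 in the B6 library. The 3′ end of D was cut by more in members, by the ends the aligner gave. The mean cut was 4.6 nucleotides against 4.09 in the iB library and 6.83 against 5.02 in the B6 library. The 5′ end of J went the other way. Its mean cut was 1.82 nucleotides in members against 2.42 in the iB library and 1.5 against 3.26 in the B6 library. These cuts are not all bases lost, since the aligner could give bases of D to J. It cut D by 9 nucleotides and let J reach 5 beyond its end in the IGHD1-1 to IGHJ1 joint shown above, which holds the whole D end. Tyrosine, which the D segments encode in their preferred frame, made up a mean of 22.3% of the CDR3 residues in members and 19.2% in the other clonotypes of the iB library, and 20.2% and 17.2% in the B6 library.

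The V families of members and of the other clonotypes were compared to ask whether segment choice went with the lack of insertions. In the iB library the IGHV5 family, which lies nearest the D segments together with IGHV2, was less frequent among members. It made up 130 of 595 members (21.8%) and 2033 of 6192 other clonotypes (32.8%), a difference of −11.0 percentage points (95% interval, −14.3 to −7.30; Fisher's exact test, two-sided, adjusted p = 2.23e-07). IGHV14 made up 6.72% of the members and 3.75% of the others (adjusted p = 0.00591, Fisher's exact test), and IGHV8 made up 6.22% and 3.46% (adjusted p = 0.00591, Fisher's exact test). These were 3 of the 13 families tested (23.1%), 2 higher (15.4%) and 1 lower (7.69%) among members, and each kept its direction and its side of the threshold in all 11 alternatives run on it. IGHV2 made up 10.8% of the members and 7.96% of the others (adjusted p = 0.0598, Fisher's exact test), IGHV6 4.03% and 2.31% (adjusted p = 0.0562), IGHV3 7.39% and 5.33% (adjusted p = 0.0834) and IGHV1 28.2% and 30.0% (adjusted p = 0.574).

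No V family of the B6 library passed the threshold (0% of 11 tested by Fisher's exact test, and 1 at an unadjusted p under 0.05). IGHV5 made up 10 of 166 members (6.02%) and 737 of 5782 other clonotypes (12.7%), a difference of −6.72 percentage points (95% interval, −9.58 to −1.94; Fisher's exact test, adjusted p = 0.0931). IGHV14, more frequent among members of the iB library, made up 3 members (1.81%) and 3.58% of the others here, and IGHV8 made up 5.42% and 4.50% (adjusted p = 0.849 and 0.995, Fisher's exact test). IGHV1, the largest family, made up 63.9% of the members and 59.6% of the others (adjusted p = 0.849, Fisher's exact test). By Woolf's test of equal odds ratios, the IGHV5 difference in the iB library (odds ratio, 0.572) and that in the B6 library (0.439) did not differ past the threshold (ratio, 1.30; 95% interval, 0.664–2.56).

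The letters at the 3′ end of V were shared between some of these families. The end tgtgcaaga was held by 34 of 40 IGHV1 genes and 6 of 9 IGHV5 genes with a rebuilt end. It was held by 2 of 3 IGHV3 genes, 2 of 4 IGHV9 genes, 0 of 4 IGHV14 genes and 0 of 6 IGHV2 genes. The ends of IGHV8 genes were not compared. The share of exact runs was also lower in IGHV5, with 50 in the iB library (2.31% of its clonotypes with a D hit), beside 97 in IGHV1 (4.79%), 24 in IGHV8 (9.56%) and 22 in IGHV14 (8.09%).

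Among single V genes, 3 of 67 (4.48%), 1 higher (1.49%) and 2 lower (2.99%), passed the threshold in the iB library by Fisher's exact test, and 0 of 63 (0%) in the B6 library, where 1 had an unadjusted p under 0.05. IGHV5-6 (chr12:113625508-113625801) made up 19 of 595 members (3.19%) and 7.24% of the other clonotypes of the iB library (adjusted p = 0.00415, Fisher's exact test). IGHV5-4 (chr12:113597448-113597741) made up 51 members (8.57%) and 13.6% of the others (adjusted p = 0.0122, Fisher's exact test). IGHV7-1, named after its value was seen, made up 8 members (1.34%) and 0.307% of the others (adjusted p = 0.0367, Fisher's exact test). The count fell to 0 among clonotypes with a single best D gene and to 1 when palindromic nucleotides were counted as inserted. The next largest differences of the iB library were in IGHV3-6 (6.39% against 4.43%; Fisher's exact test, adjusted p = 0.305), IGHV9-3 (4.37% against 6.12%; adjusted p = 0.359) and IGHV5-2 (2.52% against 1.05%; adjusted p = 0.0704). Those of the B6 library were in IGHV1-26 (6.63% against 4.41%), IGHV10-3 (3.01% against 1.14%), IGHV1-62-3 (1.2% against 3.06%), IGHV1-82 (0.602% against 2.44%) and IGHV1-61 (0 of 166 members against 1.83%), each with an adjusted p of 1. Of the 58 V genes tested in both libraries, 31 differed in the same direction and 0 passed the threshold in both.

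**Figure D3:**
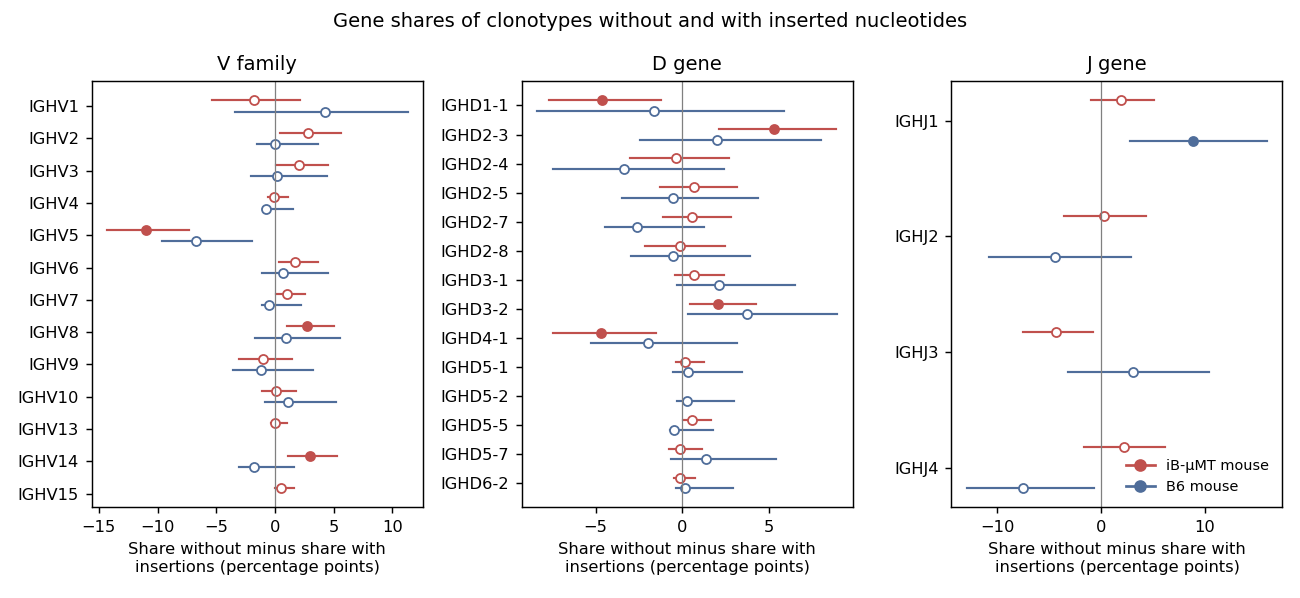
Share of each V family, D gene and J gene among members minus its share among clonotypes with insertions (percentage points, x axes), in the iB library (red) and the B6 library (blue), with 95% intervals. Filled symbols have an adjusted p under 0.05 (Fisher's exact test), and IGHV5 of the iB library lies farthest to the left at −11.0 in the V panel.

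The D genes were compared with the limit that the D alignment enters the rule, and that a short D leaves more bases unaligned. For the iB library 4 of 13 D genes (30.8%) passed the threshold. IGHD2-3 was more frequent among members, with 125 of 595 (21.0%) against 15.7% (adjusted p = 0.0139, Fisher's exact test), and so was IGHD3-2, with 33 (5.55%) against 3.46% (adjusted p = 0.0499, Fisher's exact test). IGHD1-1, the longest of the D genes shown, was less frequent, with 107 (18%) against 22.6% (adjusted p = 0.0367, Fisher's exact test), and so was IGHD4-1, the shortest of them, with 86 (14.5%) against 19.2% (adjusted p = 0.0323, Fisher's exact test). The count fell to 0 when each distinct D-J joint was counted once, where the difference of IGHD4-1 was 3.08 percentage points, and to 0 for exact germline runs. IGHD3-2 was also lost with a single best D gene, without clonotypes of both mice and without D hits mostly in the palindromic extension. It was lost as well with palindromic nucleotides counted as inserted (Fisher's exact test, adjusted p from 0.0503 to 0.515 over these settings). With that count IGHD1-1 and IGHD2-3 were lost too (adjusted p = 0.419 and 0.231, Fisher's exact test), and IGHD4-1 turned to 0.465 percentage points. IGHD1-1 was also lost without those D hits and with at least 8 aligned nucleotides of D (adjusted p = 0.0591 and 0.0617, Fisher's exact test). The other D genes of the IGHD2 family lay within 0.7 percentage points of their share among other clonotypes.

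For the B6 library 0 of 14 D genes (0%) passed by Fisher's exact test, and 1 had an unadjusted p under 0.05. That was IGHD3-2, with 14 of 166 members (8.43%) against 4.70% (Fisher's exact test, adjusted p = 0.557). IGHD1-1 made up 54 members (32.5%) and 34.2% of the others, and IGHD2-3 made up 22 (13.3%) and 11.3%. Woolf's test found no D gene whose odds ratio differed between the libraries past the threshold (smallest adjusted p, 0.806).

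Of the J genes, IGHJ1 was more frequent among members of the B6 library, with 42 of 166 (25.3%) against 16.4% of the other clonotypes (difference, 8.87 percentage points; 95% interval, 2.79–16.1; adjusted p = 0.0165, Fisher's exact test). It was 1 of the 4 J genes tested (25%), and the difference was 0.515 percentage points for exact germline runs (adjusted p = 0.888). The difference was 4.28 with each distinct D-J joint counted once and 4 with palindromic nucleotides counted as inserted (Fisher's exact test, adjusted p = 0.366 and 0.527). With at least 8 aligned nucleotides of D it was 8.56 (adjusted p = 0.0594, Fisher's exact test). IGHJ4 made up 19.9% and 27.4% (Fisher's exact test, adjusted p = 0.067), IGHJ3 27.1% and 24.0% (adjusted p = 0.358) and IGHJ2 27.7% and 32.2% (adjusted p = 0.318). No J gene of the iB library passed (0% of 4 by Fisher's exact test, 1 at an unadjusted p under 0.05). IGHJ3 made up 19.7% of the members and 24.0% of the others (Fisher's exact test, adjusted p = 0.07), IGHJ1 15.8% and 13.9%, IGHJ2 33.1% and 32.8%, and IGHJ4 31.4% and 29.2%. By Woolf's test no J gene had an odds ratio that differed between the libraries past the threshold (smallest adjusted p, 0.0658).

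Short homology was measured as the number of bases at a joint that both rebuilt germline ends could have given. At joints without an insertion these were the bases that both exact runs covered. At joints with insertions the ends do not meet, and the bases beside the gap that the other germline end also holds were counted instead. Homology was known in 543 members of the iB library and 143 of the B6 library. Members were set against clonotypes that also lacked an insertion at the same joint but had one at the other, which does not reuse the rule at that joint. At the D-J joint, 200 of 543 members of the iB library (36.8%) and 1192 of 2919 such clonotypes (40.8%) had at least 2 nucleotides of homology, a difference of −4.00 percentage points (95% interval, −8.34 to 0.496; Fisher's exact test, p = 0.0862). For the B6 library it was 21 of 143 (14.7%) and 245 of 1423 (17.2%), a difference of −2.53 percentage points (95% interval, −7.82 to 4.45; Fisher's exact test, p = 0.485). When each distinct joint was counted once, the difference in the iB library was 7.03 percentage points (Fisher's exact test, p = 0.00788). Here and below, a distinct joint counted as homologous if any of its clonotypes was. Such shares therefore also depend on how many clonotypes each joint holds.

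Against D-J joints with insertions, which the rule separates and where homology was counted otherwise, the values are a description. For the iB library 402 of 2879 such joints (14%) had at least 2 nucleotides of homology, 22.9 percentage points below the members (95% interval of the difference, 18.7–27.2). The difference was 5.35 percentage points when each distinct joint was counted once. Of the B6 joints with insertions 546 of 3761 (14.5%) had it, a difference of 0.168 percentage points (95% interval, −4.84 to 6.98). The mean homology at D-J was 1.2 nucleotides (SD, 1.56) in members of the iB library and 0.469 (SD, 0.972) at joints with insertions, and 0.566 (SD, 1.21) and 0.526 (SD, 1.04) in the B6 library.

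In the groups without an insertion at D-J, joints at which exact germline bases did not meet count as 0 homology, which lowered their shares. Joints with insertions were not set to 0 in this way. Those set to 0 made up 33.7% of the D-J joints of members in the iB library and 57.3% in the B6 library. Over joints covered by exact germline bases, 200 of 360 members of the iB library (55.6%) and 21 of 61 of the B6 library (34.4%) had at least 2 nucleotides. The other clonotypes without a D-J insertion then stood at 60.5% (Fisher's exact test, p = 0.0901) and 42.2% (Fisher's exact test, p = 0.275). The B6 members lay 19.9 percentage points above joints with insertions, which were not limited in this way and stayed at 14.5%.

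Among members, homology of at least 2 nucleotides at D-J was more frequent in the iB library than in the B6 library by 22.1 percentage points (95% interval, 14.3–28.5; Fisher's exact test, adjusted p = 4.1e-07). It was 55.6% against 34.4% over covered joints and 20.4% against 16.5% when each distinct joint was counted once. Clonotypes with an insertion at V-D only stood at 40.8% and 17.2%, so the difference between the libraries was not particular to members. The p-value counts members that share a D-J joint as independent. The 200 homologous joints of the iB library held few sequences. The overlap was ac in 71, tac in 30, ctac in 28, actac in 18 and ct in 15. Of the 21 such joints of the B6 library, 4 held each of ac, tac, ctac and actac. The most frequent combinations in the iB library were IGHD1-1 with IGHJ1 by ctac (14 members), IGHD4-1 with IGHJ2 by ac (13) and IGHD2-3 with IGHJ2 by actac (11), as the capitals above show for the first and the last of these. The other joints were spread over many pairs and overlaps.

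**Figure D4:**
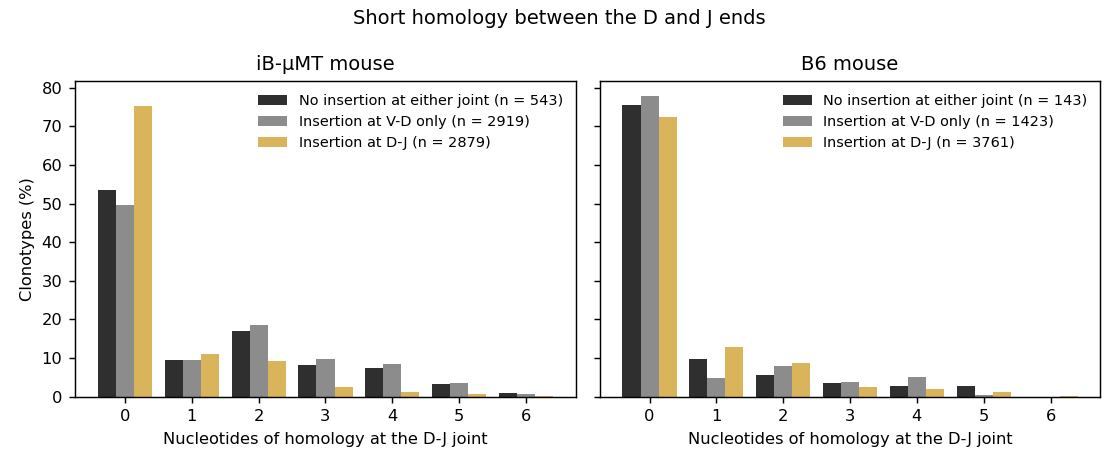
Share of clonotypes (percent, y axis) by nucleotides of homology at the D-J joint (x axis) in each mouse, for members (black), clonotypes with an insertion at V-D only (grey) and clonotypes with an insertion at D-J (yellow). The yellow bars rest on another count of homology, since the ends do not meet at an insertion. In the iB library the black and grey bars at 2 or more nucleotides sum to 36.8% and 40.8% and the yellow bars to 14%, and in the B6 library they sum to 14.7%, 17.2% and 14.5%.

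Homology was rarer at the V-D joint. Of the iB clonotypes, 36 of 543 members (6.63%) and 57 of 459 clonotypes with an insertion at D-J only (12.4%) had at least 2 nucleotides, a difference of −5.79 percentage points (95% interval, −9.58 to −2.16; Fisher's exact test, p = 0.00209). The difference was −2.27 for exact germline runs (p = 0.29, Fisher's exact test) and −0.445 when palindromic nucleotides were counted as inserted (p = 0.902, Fisher's exact test). It was −7.48 when each distinct joint was counted once and −7.15 over covered joints (Fisher's exact test, p = 0.000185 and 0.00184). In the B6 library 8 of 143 members (5.59%) and 30 of 388 such clonotypes (7.73%) had it (Fisher's exact test, p = 0.453). At V-D joints with insertions the share was 3.37% in the iB library and 3.88% in the B6 library, counted as for D-J joints with insertions.

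The reading frame of D was determined next, because germline D segments favour a frame rich in tyrosine. Of the members with a D gene that has such a frame, 367 (81.4%) used it in the iB library, against 80.5% of the other clonotypes (Fisher's exact test, p = 0.708). Of the B6 members 101 (80.2%) used it, against 74.4% (difference, 5.75 percentage points; 95% interval, −2.15 to 11.9; Fisher's exact test, p = 0.177). Stop codons were found in 7 members of the iB library (1.18%) and 0.662% of its other clonotypes (Fisher's exact test, p = 0.191). In the B6 library they were found in 10 members (6.02%) and 2.16% of the others (Fisher's exact test, p = 0.00428). The B6 difference of 3.86 percentage points was 1.94 in clonotypes with at least 5 reads (p = 0.0671, Fisher's exact test) and −2.29 for exact germline runs (p = 0.405, Fisher's exact test).

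Members of the iB library had more reads per clonotype. Their reads ranged from 1 to 5930 with a median of 118, against 1 to 772 with a median of 92.5 in its other clonotypes. The mean log2 of reads was 6.47 (SD, 1.82) against 6.10 (SD, 1.87), a difference of 0.37 or 1.29-fold (permutation test with 100000 resamples, two-sided, p = 1e-05, the smallest it can give). Of the 100 clonotypes with a D hit with most reads, 25 were members. In the B6 library the reads of members ranged from 1 to 915 with a median of 191.5, against 1 to 1558 with a median of 183, and the mean log2 of reads was 6.71 (SD, 2.57) against 6.77 (SD, 2.24; permutation test, p = 0.717). There 6 of the 100 most read were members, and exact germline runs had a mean log2 of reads 0.69 higher than the rest (permutation test, p = 0.0152). Reads are not molecules here, since no molecular identifiers were described, and the part of the shorter CDR3 of members in these values was not tested.

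**Figure D5:**
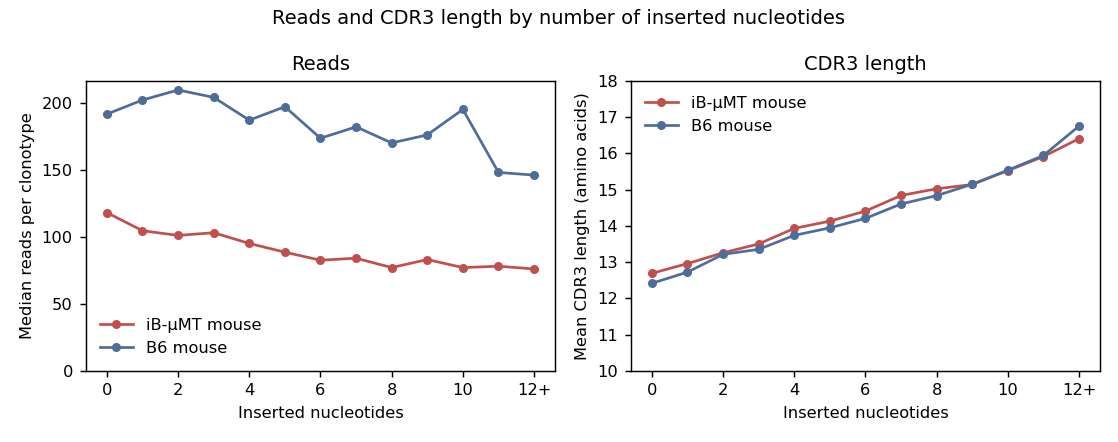
Median reads per clonotype (left) and mean CDR3 length in amino acids (right, axis from 10 to 18) by the number of inserted nucleotides (x axes), in the iB library (red) and the B6 library (blue). In the iB library the median was 118 reads at 0 inserted nucleotides and 76 at 12 or more, and the mean length was 12.7 and 16.4 amino acids.

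A CDR3 without insertions has fewer possible sequences, so sharing between the libraries was examined. The same CDR3 nucleotides, V gene and J gene were found in both mice for 1 member, an IGHV1-26 (chr12:114788372-114788665), IGHD1-1 and IGHJ1 clonotype with 249 reads in the iB library and 178 in the B6 library. It is shown with the bases that IGHD1-1 and IGHJ1 share in capitals.
Clonotype of both mice: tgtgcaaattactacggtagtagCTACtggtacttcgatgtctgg
It was an exact germline run and held the most frequent D-J joint. Among clonotypes with insertions 29 were found in both mice, so the share was 0.168% of members and 0.468% of the others in the iB library (Fisher's exact test, p = 0.513), and 0.602% and 0.502% in the B6 library (Fisher's exact test, p = 0.573).

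The amino acid sequence of CDR3 was shared more often, in a comparison added after the data had been seen. Of the iB members 24 of 595 (4.03%) had a CDR3 amino acid sequence found in the table of the B6 library, against 101 of 6192 other clonotypes (1.63%; Fisher's exact test, p = 0.000187). Of the B6 members it was 15 of 166 (9.04%) against 98 of 5782 (1.69%; Fisher's exact test, p = 4.34e-07). Of those 24 and 15 members, 11 and 9 met a clonotype that was itself without insertions. Some clonotypes had the same amino acid sequence as another of their own group and were not independent here. They were 59 of the 595 members and 255 of the 6192 others in the iB library, and 4 and 52 in the B6 library. The part of the shorter CDR3 of members in this sharing was not tested.

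The members of the libraries differed from each other in segment use, as libraries of 1 mouse each. IGHV1 made up 28.2% of the members of the iB library and 63.9% of those of the B6 library (Fisher's exact test, adjusted p = 1.31e-15). IGHV5 made up 21.8% and 6.02% (adjusted p = 3.2e-06, Fisher's exact test), IGHV2 10.8% and 2.41% (adjusted p = 0.000991, Fisher's exact test) and IGHV14 6.72% and 1.81% (adjusted p = 0.0286, Fisher's exact test), which with IGHV1 were 4 of 9 families tested (44.4%). IGHD1-1 made up 18% and 32.5% (adjusted p = 0.000878, Fisher's exact test), the only one of 9 D genes to pass (11.1%). IGHJ1 made up 15.8% and 25.3% and IGHJ4 31.4% and 19.9% (adjusted p = 0.0119 for each, Fisher's exact test), 2 of 4 J genes (50%). Among the other clonotypes IGHV1 stood at 30.0% and 59.6% and IGHV5 at 32.8% and 12.7%. There IGHV2 stood at 7.96% and 2.39% and IGHD1-1 at 22.6% and 34.2%. The shares lay closer together there for IGHV14 (3.75% and 3.58%), IGHJ1 (13.9% and 16.4%) and IGHJ4 (29.2% and 27.4%).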

How the data were processed

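The authors extracted total RNA of sorted naïve FO B cells, amplified cDNA 5′ ends, sequenced paired reads on a MiSeq and assembled clonotypes with MiXCR. Their processing notes name bcl2fastq and mm10. The deposited tables give a count of reads for each clonotype, the fraction of reads it holds and a quality score. The counts, best V, D, J and C hits, segment ends and CDR3 sequences were used as deposited, and the fraction and score columns were only inspected. The heavy chain tables held 909806 reads (iB-μMT mouse) and 1383617 reads (B6 mouse), where 3 reads are 0.000330% and 0.000217%. Intervals cover counting error only, since PCR reads are not independent molecules. The 4 light chain tables were not used, since light chains have no D segment, and neither were the 1007 and 833 heavy chain clonotypes without a D hit.

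Members and lists were chosen with earlier results of these data known. A nucleotide was counted as inserted when it lay between V and D, or between D and J, outside the aligned segments. Each germline base was the most frequent aligned base among at least 3 clonotypes, because no germline reference was used here. Gene positions are from the RefSeq table of GRCm38.p6. Fisher's exact test (two-sided) was used for shares, over features with at least 20 clonotypes, with Benjamini-Hochberg adjustment at 0.05 over each kind of feature in a library. Intervals of shares were Wilson 95% intervals and those of differences Newcombe intervals. Mean log2 reads were compared by permutation (100000 resamples), and effects between mice by Woolf's test. Named features were all J genes, D genes and V families tested, the 5 V genes with the largest difference in each library, the 3 most read members of each library, the 5 most frequent D-J joints and members found in both mice.

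Alternatives were at least 2 or 5 reads, merging of clonotypes 1 mismatch from one with at least 10 times the reads, productive clonotypes, at least 8 aligned nucleotides of D, a single best D or V gene, leaving out clonotypes of both mice, palindromic nucleotides counted as inserted, homology of at least 1 or 3 nucleotides, and each distinct joint once. Exact germline runs only, leaving out D hits mostly in the palindromic extension, and joints covered by exact germline bases were chosen after seeing the data. The V gene test was tested on simulated data for the iB-μMT library with 67 genes, where 3 of 5 genes raised 3-fold and 3 of 5 lowered 3-fold were recovered and 0 others were called. The changed genes were drawn from the most frequent ones, so recovery of rarer genes was not simulated. Python 3.11.15, NumPy 2.4.6, SciPy 1.17.1, pandas 2.3.3 and matplotlib were used.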

Additional observations from a re-analysis of the deposited data

Results flagged for a closer look

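The excess of D-J homology of at least 2 nucleotides in members over D-J joints with insertions differed between the mice. The odds ratio was 3.59 in the iB library and 1.01 in the B6 library, a ratio of 3.54 (95% interval, 2.12–5.93, Woolf's method). It compares 1 library per mouse. Joints of members at which exact germline bases did not meet were counted as 0 homology. They made up 33.7% of the members in the iB library and 57.3% in the B6 library. Joints with insertions were counted otherwise and were not set to 0. Over covered joints of members, beside all joints with insertions, the odds ratios were 7.70 and 3.09, a ratio of 2.49 (95% interval, 1.39–4.47). When each distinct joint was counted once they were 1.45 and 0.931, a ratio of 1.55 (95% interval, 0.821–2.94).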

How the results depend on the processing

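Of 362 values recomputed under the alternatives for the comparisons, 323 kept their direction and their side of the threshold or moved by less than their spread. Of 93 values for single V families, D genes and the J gene called, 72 did so, 19 lost the threshold and 2 reversed. Counting palindromic nucleotides as inserted lowered the share of members to 3.99% in the iB library and 1.06% in the B6 library, left 1 V gene and 1 D gene of the iB library and 0 J genes of the B6 library past the threshold, turned IGHD4-1 to 0.465 percentage points, and gave a V-D homology difference of −0.445 in the iB library and a stop codon difference of 4.12 in the B6 library (p = 0.0541, Fisher's exact test). Exact germline runs only gave shares of 4.66% and 1.08%, 0 D genes in the iB library, 0 J genes in the B6 library, a V-D homology difference of −2.27 in the iB library, a stop codon difference of −2.29 and a log2 read difference of 0.69 in the B6 library. The D-J homology differences then were 14.5 (iB) and 15.3 (B6) percentage points against other joints without insertion and 17.1 against joints with insertions in the B6 library, where by construction no exact run holds an uncovered joint. Over covered joints of members, beside all joints with insertions, the latter was 19.9. Leaving out D hits mostly in the palindromic extension gave 5 V families, 2 D genes and 1 J gene in the iB library and 1 V family and 2 J genes in the B6 library. At least 5 reads gave 6 V families in the iB library and a stop codon difference of 1.94 in the B6 library, and merging near-identical clonotypes gave 1.86 there. At least 8 aligned D nucleotides gave stop codon differences of 1.03 (p = 0.0364, Fisher's exact test) in the iB library and 1.83 in the B6 library, with 0 J genes and 2.21% members in the latter. A single best D gene gave 5 V families and 0 V genes in the iB library and a frame difference of 9.21 (p = 0.0413, Fisher's exact test) in the B6 library. Each distinct joint once gave 0 D genes, IGHD4-1 at 3.08, a D-J homology difference of 7.03 and a V-D homology difference against joints with insertions of 1.49 in the iB library, and 0 J genes in the B6 library. That V-D difference was −2.21 for homology of at least 1 nucleotide and 0.54 for at least 3. The cause of the other changes was not tested. No paired analysis was possible because each group holds 1 mouse.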
